A study of Mus musculus with 6 samples.

Results

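Interferon response genes were followed in mouse lung endothelial cells (ECs) 7 days after unilateral pneumonectomy (PNX), the removal of 1 lung. The genes were chosen by symbol: the Ifi, Ifit, Ifitm, Oas, Gbp, Mx and Irf families, Stat2, the immunity-related GTPases Irgm1, Irgm2, Igtp and Iigp1, and single genes such as Isg15, Rsad2, Bst2 and Zbp1. The rule found 72 of the 24063 symbols counted, represented by 106 of 33068 RefSeq transcripts. The ECs came from lungs of male C57BL6 mice, labelled as 8 weeks old, and were pulled out with magnetic beads carrying an antibody to CD31. The study's methods give an older age. Both groups had surgery: a sham operation preceded 3 libraries and a PNX, 7 days before the cells were taken, the other 3. Each library held cells pooled from 2 mice. The labels name no genetic change and no drug in either group.

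Total counts ranged from 29526989 to 81282871 per library, and the interferon response genes took 0.379 to 0.411% of them. By their labels, replicates 1 and 2 in each group are re-used records of an earlier deposit, whereas replicate 3 carries no such mark. Replicates 1 and 2 differed by little more than counting error (chi-square per degree of freedom 1.75 in sham and 1.57 in PNX), against 67.9 to 86.4 for pairs with replicate 3. They were therefore summed to 1 sample, called here the earlier sample, and replicate 3 is called the later sample. Earlier and later deposit are used below as names for these sets of libraries and rest on that mark alone. Each group thus had 2 samples, and the p-values measure the spread between such samples only. An exact permutation test of 2 against 2 samples cannot give a p below 0.333. The 12 endothelial markers were all detected, and their summed level was 13690 and 10270 CPM (counts scaled by the TMM-adjusted library size) in sham and 11120 and 9499 CPM in PNX. Markers of leukocytes, epithelium and fibroblasts were detected too. In such bulk samples, fewer cells of a type and less RNA per cell cannot be told apart.

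Interferons are secreted signals of infection and inflammation. Type I and type III interferons act through the receptors Ifnar and Ifnlr on a complex with Stat2 and Irf9 that binds the interferon-stimulated response element (ISRE). Interferon gamma acts through Ifngr on factors that bind the gamma-activated site (GAS). The genes switched on sense foreign nucleic acid, block viral entry or translation, or attack membranes around intracellular pathogens. In the lung, endothelium and resident leukocytes both respond to interferon.

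The ISRE and GAS letters stood in many of the promoters. RefSeq promoters (GRCm38.p6), from 250 bases before to 50 bases after the start, were held for 49 of the 72 genes. The letters GAAANNGAAA, read on either strand and called ISRE here, were in at least 1 window of 25 of these 49 genes (51%), against 1079 of all 27025 genes (3.99%). The letters TTCNNNGAA, called GAS, were in 15 of the 49 genes (30.6%), against 9.55% of all genes. Matches of a motif may overlap each other. A match is a description of the letters and not a measured binding site. The stretches below are printed in the direction of the gene with every match in capitals. They were chosen to show how the letters lie in genes that fell after PNX (Irgm2, with its relative Igtp, and Gbp7), in genes that rose (Oas1a, with its relative Oas1g, and Ifi205) and in Isg15, a classical target. All end before the start.

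Irgm2: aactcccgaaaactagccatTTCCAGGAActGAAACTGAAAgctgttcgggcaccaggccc
Igtp: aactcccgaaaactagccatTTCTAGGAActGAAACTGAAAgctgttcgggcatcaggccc
Gbp7: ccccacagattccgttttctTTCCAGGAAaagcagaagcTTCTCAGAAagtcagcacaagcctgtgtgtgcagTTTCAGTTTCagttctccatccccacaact
Oas1a: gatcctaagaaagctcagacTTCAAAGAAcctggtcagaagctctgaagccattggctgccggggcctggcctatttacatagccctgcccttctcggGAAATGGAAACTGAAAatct
Oas1g: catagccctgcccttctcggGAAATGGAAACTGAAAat
Ifi205: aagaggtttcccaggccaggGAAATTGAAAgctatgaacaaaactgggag
Isg15: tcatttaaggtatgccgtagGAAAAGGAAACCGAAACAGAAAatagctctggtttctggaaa

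The Irgm2 stretch lies at chr11:58214882-58214942 and the Igtp stretch at chr11:58199491-58199551, both on the plus strand, and 59 of their 61 bases are the same. In both, a GAS stands just before an ISRE. The Gbp7 stretch (chr3:142530210-142530312, plus strand) has 2 GAS matches and an ISRE on the opposite strand. The Oas1a (chr5:120907526-120907643, minus strand) and Oas1g (chr5:120887614-120887651, minus strand) stretches end in the same pair of overlapping ISRE matches, and the Oas1a stretch has a GAS further upstream. The Ifi205 stretch lies at chr1:174031860-174031909 and the Isg15 stretch at chr4:156200855-156200916, both on the minus strand, with 1 ISRE and 3 overlapping ones. The ISRE was in 8 of the 9 GTPase promoters held. It was in 2 of 5 promoters of genes that rose after PNX, 2 of 4 of those that fell and 21 of 35 of the tested rest.

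Of the 72 genes, 65 had enough counts to be tested, among 16598 genes in all. The other 7 (Ifi202b, Ifi44l, Ifitm7, Oas1d, Oas1e, Oas1f and Oas1h) had 0 to 12 counts in each library. Ifitm3, which blocks fusion of enveloped viruses with the cell, was the most abundant per transcript length, with 972.5 to 987.7 TPM (the deposited length-scaled unit) in the sham libraries and 1045 to 1085 TPM in the PNX libraries. Ifitm2 (643.8 to 737.2 TPM in sham), Ifi27 (547.1 to 624.3), Irf1 (393.9 to 421.6) and Bst2 (218.3 to 294.7) followed, and the order of these 5 genes by median was the same in PNX. The ranges of neighbouring genes did not overlap in sham among these 5. By median, the lowest of the 65 tested genes in sham was Gbp2b, with 0.313 to 0.323 TPM. Shared reads counted on more than 1 transcript can raise the TPM and the summed counts of genes with several transcripts.

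No interferon response gene passed the test when the 4 samples were compared as 2 against 2. At the study's thresholds (adjusted p under 0.01 and absolute log2 fold change above 1) edgeR called 0 of 65 genes, with 0% of all genes called, and at an adjusted p under 0.05 again 0 of 65, with 0% of all genes. The unadjusted p was under 0.05 for 6 of them (2076 of 16598 over all genes), and the lowest adjusted p among them was 0.242. DESeq2 on the same samples called 0 interferon response genes and 587 genes in all, and limma-voom called 0. The deposits differed strongly. The difference between the later and earlier samples correlated between sham and PNX over 59 interferon response genes above 1 CPM (Pearson's r = 0.888), as over 13505 genes (r = 0.762). These correlations are across genes, which are not independent replicates.

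With the deposit as a block in the edgeR fit, so that PNX was compared with sham within each deposit, 9 genes rose (13.8%) and 8 fell (12.3%) at an adjusted p under 0.05, and 48 did neither. Among all genes 11.5% rose and 10.1% fell, so the shares were near the background. At the study's thresholds only Ifi204 was called, higher (1 of 65), with 3.89% of all genes higher and 1.23% lower. This fit has 1 residual degree of freedom. Without any fit, the 3 PNX libraries lay all above the 3 sham libraries for 11 genes (16.9%) and all below for 14 (21.5%), with 18.8% and 17.9% of all genes tested doing so. Because replicates 1 and 2 were nearly the same, such a separation of libraries, here and below, amounts to 2 samples against 2. The median log2 fold change with the block was -0.09, against -0.01 over all genes. Below, rose and fell mean an adjusted p under 0.05 in edgeR's test with this block, and the log2 fold changes and standard errors (SE) are from that fit. Paired CPM values give the earlier sample first and the later sample second.

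**Figure D1:**
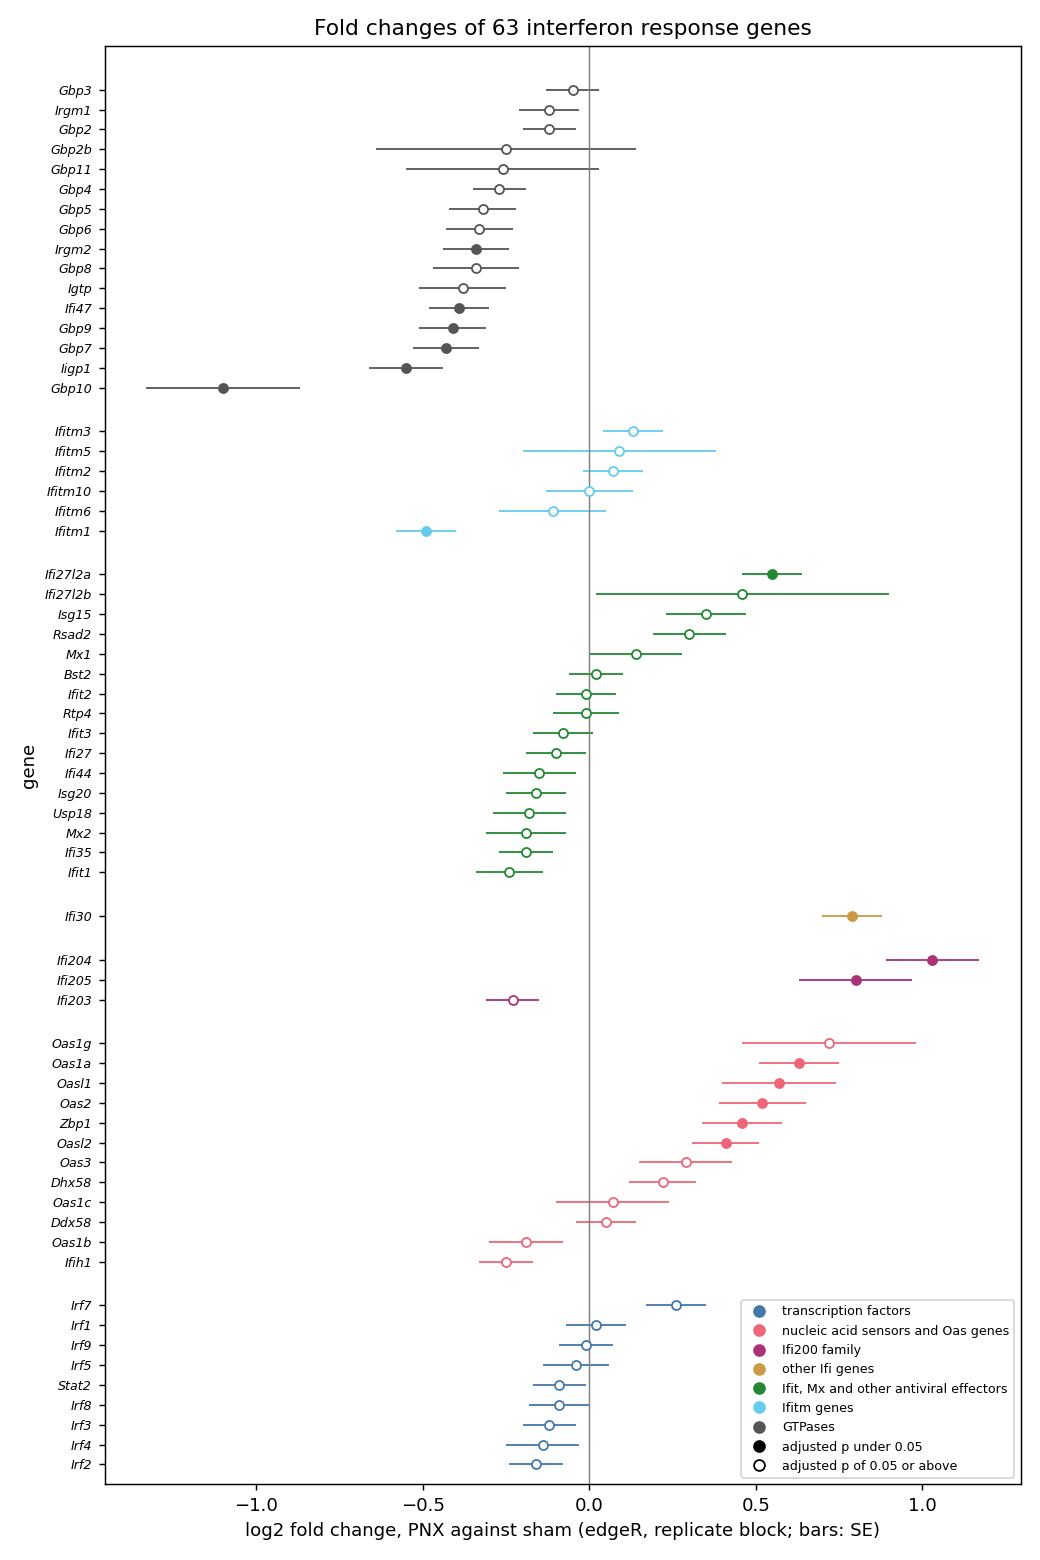
Log2 fold change of PNX against sham (x axis, edgeR with the replicate block, bars show SE) for 63 of the 65 tested interferon response genes, in rows by role and ordered by fold change. Filled points have an adjusted p under 0.05. All 16 GTPases (guanylate-binding and immunity-related) lie left of 0 and 10 of the 12 sensors and Oas genes lie right of it.

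The GTPases here are the guanylate-binding proteins and the immunity-related GTPases, whereas Mx1 and Mx2 are counted with the antiviral effectors. As a group these GTPases, which gather on vacuoles that hold pathogens and help to break them, were on the lower side. All 16 had a fitted log2 fold change below 0, with a median of -0.33 (-0.01 over all genes). Of the 16, 6 fell (37.5%, against 10.1% of all genes), 0 rose (11.5% of all genes) and 10 did neither. Their summed level was 1283 and 1049 CPM in the earlier and later sham samples and 1048 and 843.1 CPM in PNX, which was 0.817 times sham in the earlier deposit and 0.804 times sham in the later one. In 14 of 16 the level was lower in both deposits (39.3% of all genes), and in 7 of 16 the 3 PNX libraries all lay below the sham libraries (17.9% of all genes). The 5 tested genes of the Gbp cluster on chromosome 3 (142493978 to 142638008, GRCm38) and the 6 of the cluster on chromosome 5 (105014150 to 105346472) all had a fitted value below 0. Of these, 1 of 5 and 2 of 6 fell, against 10.1% of all genes.

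Gbp10, a guanylate-binding protein, had the lowest fold change. Its level was 2.29 and 1.88 CPM in the earlier and later sham samples and 1.05 and 0.915 CPM in PNX (log2 fold change -1.10, SE 0.23, adjusted p = 0.0159). All 3 PNX libraries lay below all sham libraries. Gbp10 was scarce, and its exons overlap those of Gm43302, as do those of its relative Gbp6. DESeq2 with the block gave it an adjusted p of 0.0849.

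Gbp7 and Gbp9 were more abundant guanylate-binding proteins. Gbp7 had 209.9 and 123.1 CPM in the sham samples against 140.6 and 100.9 CPM after PNX (-0.43, SE 0.10, adjusted p = 0.0200). Its 2 transcripts had identical counts, which were summed. The same reads may thus be counted more than 1 time in its CPM and in the GTPase sum. Its groups overlapped across deposits, since the earlier PNX sample was above the later sham sample. Gbp9 had 117.0 and 96.0 CPM in the sham samples against 78.9 and 81.5 CPM after PNX (-0.41, SE 0.10, adjusted p = 0.0280), with no overlap. Its exons overlap those of Gbp4 and Gbp8, so reads could be split between them. Gbp4 and Gbp3, the most abundant by summed CPM with Gbp7, whose rank rests on that sum, did not pass. Gbp4 had 246.4 and 215.9 CPM in the sham samples against 203.9 and 179.5 CPM after PNX (-0.27, SE 0.08, adjusted p = 0.0609), and its libraries did not overlap. Gbp3 had 142.6 and 125.7 CPM in the sham samples against 144.9 and 115.1 CPM after PNX (-0.05, SE 0.08, adjusted p = 0.712), and its groups overlapped.

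Of the immunity-related GTPases 3 of 5 fell (10.1% of all genes). Iigp1, which disrupts parasite vacuoles, had 126.8 and 87.3 CPM in the sham samples against 99.5 and 51.2 CPM after PNX (-0.55, SE 0.11, adjusted p = 0.0132). Ifi47 had 133.0 and 114.3 CPM in the sham samples against 110.0 and 80.4 CPM after PNX (-0.39, SE 0.09, adjusted p = 0.0225). Irgm2, a regulator that holds other GTPases inactive on the cell's own membranes, had 61.3 and 51.9 CPM in the sham samples against 53.1 and 36.9 CPM after PNX (-0.34, SE 0.10, adjusted p = 0.0447). For Ifi47 the 3 PNX libraries lay below the sham libraries, whereas for Iigp1 and Irgm2 they overlapped. Igtp, whose promoter stretch is nearly that of Irgm2 and whose exons overlap it, had a fold change of -0.38 (SE 0.13) and did not pass (adjusted p = 0.0725). The Irgm2 call held in 3 of 10 fits with a block and was lost without sham replicate 1, sham replicate 2 or PNX replicate 1 (adjusted p up to 0.0975 over the 10 fits).

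Markers of several other cell types were lower after PNX as well. B cell markers fell in 9 of 9 (summed level 221.2 and 273.9 CPM in sham, 143.6 and 157.1 CPM in PNX), and T cell markers in 8 of 10 (78.4 and 145.5 CPM, then 42.5 and 97.4 CPM). Alveolar epithelial markers fell in 9 of 9 (9282 and 7047 CPM, then 6294 and 2529 CPM) and airway epithelial markers in 6 of 6 (2628 and 4523 CPM, then 1275 and 1238 CPM). Dendritic cell markers fell in 4 of 10, and 1 of 12 endothelial markers fell (Tek), with 10.1% of all genes falling. Of the 12 endothelial markers, 10 had a fitted value below 0 and 8 were lower in both deposits. Their summed level was 0.813 times sham in the earlier deposit and 0.925 times in the later one. From the earlier to the later sham sample the GTPase, endothelial and alveolar epithelial sums were lower. The B cell, T cell, dendritic cell and airway sums were higher. No marker of these lists was at 0 in any library. The part of these cells in the GTPase levels was not tested.

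**Figure D2:**
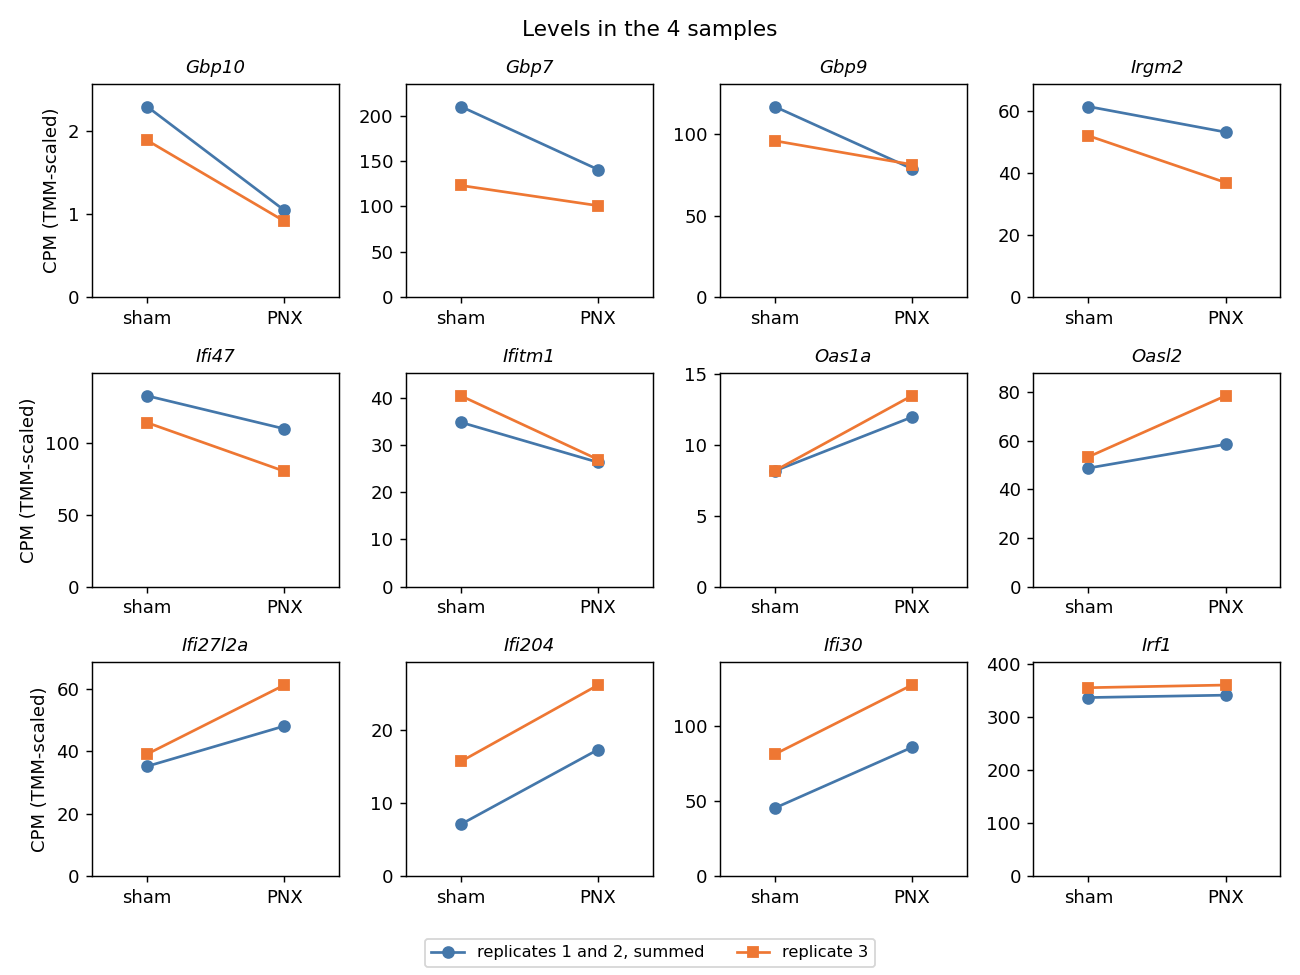
Levels in CPM (y axis from 0) of 12 interferon response genes in the sham and PNX samples, with a line joining the samples of one deposit. The 6 GTPase and Ifitm genes shown first slope down in both deposits, the 5 from Oas1a to Ifi30 slope up, and Irf1 is level.

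The nucleic acid sensors and Oas genes were on the higher side. Of 12 tested, 10 had a fitted value above 0, and the median was 0.35 (-0.01 over all genes). Of the 12, 5 rose (41.7%, against 11.5% of all genes), 0 fell (10.1% of all genes) and 7 did neither. The 4 that rose besides Zbp1 were oligoadenylate synthetases or their relatives, enzymes that detect double-stranded RNA and, in the active forms, make the messenger that switches on RNase L. The Oas cluster on chromosome 5 (120730333 to 120921652, GRCm38) had 6 tested genes, 5 of them above 0, and both Oasl genes were above 0.

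Oas1a was steady among sham samples, at 8.17 and 8.19 CPM, and stood at 11.98 and 13.5 CPM in PNX (0.63, SE 0.12, adjusted p = 0.0102). Oas2 had 16.2 and 15.2 CPM in the sham samples against 19.7 and 26.2 CPM after PNX (0.52, SE 0.13, adjusted p = 0.0324). For both, every PNX library lay above every sham library. The same held for Oasl2, at 48.8 and 53.4 CPM in the sham samples against 58.5 and 78.5 CPM after PNX (0.41, SE 0.10, adjusted p = 0.0251), and for Oasl1, at 2.99 and 3.39 CPM in the sham samples against 4.22 and 5.39 CPM after PNX (0.57, SE 0.17, adjusted p = 0.0480). The exons of Oasl1 overlap the antisense gene Gm13822, the strand setting of the counting is not given in the sources used here, and the Oasl1 call held in 2 of 10 fits with a block, none of them with a library left out (adjusted p up to 0.195 over the 10 fits). The Oas2 call was lost without sham replicate 1 or PNX replicate 1 (adjusted p up to 0.0592). Oas1g, with the same ISRE pair as Oas1a, was scarce at 0.985 and 0.677 CPM in the sham samples against 1.49 and 1.29 CPM after PNX (0.72, SE 0.26, adjusted p = 0.0949).

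Zbp1, a sensor of Z-form nucleic acid that can trigger necroptosis, had 12.7 and 25 CPM in the sham samples against 19.98 and 29.7 CPM after PNX (0.46, SE 0.12, adjusted p = 0.0334). The sham samples differed more from each other than PNX did from sham, and the call held in 4 of 10 fits with a block and was lost without sham replicate 2 or PNX replicate 1 (adjusted p up to 0.0783). The RNA helicases gave a mixed picture. Ifih1 (MDA5) had 91.7 and 78.6 CPM in the sham samples against 74.7 and 68.1 CPM after PNX (-0.25, SE 0.08, adjusted p = 0.0639), and Ddx58 (RIG-I) had 63.5 and 53.9 CPM in the sham samples against 61.9 and 59.3 CPM after PNX (0.05, SE 0.09, adjusted p = 0.731). Neither passed.

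In the Ifi200 family, whose proteins bind DNA and some of which assemble signalling complexes on it, 2 of 3 tested genes rose. Among all genes 11.5% rose. Ifi204 (chromosome 1, 173747293 to 173766943, minus strand) had the highest fold change of all 65 genes. It had 7.06 and 15.7 CPM in the sham samples against 17.3 and 26.1 CPM after PNX (1.03, SE 0.14, adjusted p = 0.00313). Ifi205 had 2.82 and 4.92 CPM in the sham samples against 5.61 and 7.25 CPM after PNX (0.80, SE 0.17, adjusted p = 0.0168). All PNX libraries were above all sham libraries for both, although the later sham samples were well above the earlier ones. Ifi203, the most abundant, had a value on the other side: 135.4 and 121.1 CPM in the sham samples against 115.0 and 103.1 CPM after PNX (-0.23, SE 0.08, adjusted p = 0.0752). The genes of this family are close copies in 1 cluster, and the exons of Ifi203 overlap Mndal, so the counting could split reads among them. The call of Ifi204 at the study's thresholds was absent without sham replicate 1 or without PNX replicate 1 (0 genes called), while its adjusted p stayed between 8.26e-06 and 0.0195 over the 10 fits with a block.

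Ifi30, a lysosomal thiol reductase that prepares antigens for presentation, had the lowest adjusted p of the 65 genes. It had 45.3 and 81.3 CPM in the sham samples against 85.9 and 127.6 CPM after PNX (0.79, SE 0.09, adjusted p = 0.00162). The PNX libraries were all above the sham libraries, and the later samples were above the earlier ones in both groups. Its exons overlap an antisense gene, 6330537M06Rik.

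Besides Ifi204, Ifi205, Ifi30, Zbp1 and Oas genes, macrophage markers rose. Of 11 tested, 7 rose and 1 fell (Mertk), and the complement genes C1qa, C1qb and C1qc rose most, with log2 fold changes of 2.49, 2.61 and 2.63. The summed level of the list was 2527 and 4556 CPM in the sham samples against 3291 and 4524 CPM after PNX. It was thus 1.30 times sham in the earlier deposit and 0.993 times in the later one. The sum was higher in the later samples, as were Ifi204, Ifi205, Ifi30 and Zbp1. Among the Oas genes that rose, the earlier and later sham samples had 8.17 and 8.19 CPM of Oas1a and 16.2 and 15.2 CPM of Oas2. They had 2.99 and 3.39 CPM of Oasl1 and 48.8 and 53.4 CPM of Oasl2. The summed neutrophil markers (259.8 and 719.9 CPM) and mesothelial markers (135.9 and 346.3 CPM) were also higher in the later sham sample. No macrophage marker was at 0 in any library. Fibroblast markers rose in 7 of 9 and fell in 1 (Pdgfra), with a summed level of 1193 and 1345 CPM in the sham samples against 3566 and 5052 CPM after PNX. Mesothelial markers rose in 4 of 5, with summed levels 2.13 and 2.29 times sham in the earlier and later deposit. Monocyte markers rose in 3 of 10 and fell in 1, and Csf1r, which rose, is on both the monocyte and the macrophage list. The monocyte sum was lower after PNX, at 5279 and 5568 CPM in the sham samples against 4659 and 4883 CPM. The part of these cells in the higher levels was not tested.

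Among the Ifit, Mx and other antiviral effectors, 1 of 16 tested rose (6.25%, against 11.5% of all genes) and 0 fell. Ifi27l2a, a small mitochondrial protein gene, had 35.1 and 39.0 CPM in the sham samples against 48.0 and 61.2 CPM after PNX (0.55, SE 0.09, adjusted p = 0.00609), with every PNX library above every sham library. Its abundant neighbour Ifi27 had 227.5 and 201.0 CPM in the sham samples against 219.3 and 181.4 CPM after PNX (-0.10, SE 0.09, adjusted p = 0.452). Bst2 (tetherin), which holds budding virus at the cell surface, had 88.0 and 66.5 CPM in the sham samples against 89.2 and 67.7 CPM after PNX (0.02, SE 0.08, adjusted p = 0.874). For both of these genes the groups overlapped and the deposits differed more than the groups. The median over the 16 genes was -0.05, and the fitted values ran from -0.24 to 0.55. Isg15, a ubiquitin-like modifier whose promoter is shown above, had 9.83 and 8.74 CPM in the sham samples against 13.7 and 10.03 CPM after PNX (0.35, SE 0.12, adjusted p = 0.0853), and the groups overlapped.

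The Ifitm genes include several that keep viruses from fusing with cell membranes. Ifitm1, Ifitm2, Ifitm3, Ifitm5 and Ifitm6 lie in 1 cluster with Irf7 on chromosome 7 (140948958 to 141266481, GRCm38), and Ifitm10 lies outside it. Of these 6 Ifitm genes tested, 1 fell (16.7%, against 10.1% of all genes) and 0 rose. Ifitm1 had 34.8 and 40.4 CPM in the sham samples against 26.3 and 26.9 CPM after PNX (-0.49, SE 0.09, adjusted p = 0.01001), and no libraries overlapped. Ifitm3 had 254.0 and 254.2 CPM in the sham samples against 274.8 and 280.2 CPM after PNX (0.13, SE 0.09, adjusted p = 0.344), and Ifitm2 had 184.0 and 160.5 CPM in the sham samples against 184.9 and 176.1 CPM after PNX (0.07, SE 0.09, adjusted p = 0.612). All 3 PNX libraries of Ifitm3 were above the sham libraries, but the difference did not pass the test. The lymphocyte and epithelial markers that fell with Ifitm1 are given above, and their part in its level was not tested.

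Of the transcription factors that carry the interferon signal, the abundant Irf1 and Irf9 did not pass. Irf1, which binds the ISRE without Stat2, had 336.6 and 355.2 CPM in the sham samples against 341.1 and 360.2 CPM after PNX (0.02, SE 0.09, adjusted p = 0.905). Irf9, the DNA-binding part of the type I complex, had 163.2 and 134.4 CPM in the sham samples against 154.4 and 139.5 CPM after PNX (-0.01, SE 0.08, adjusted p = 0.928). The groups overlapped for both genes.

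**Figure D3:**
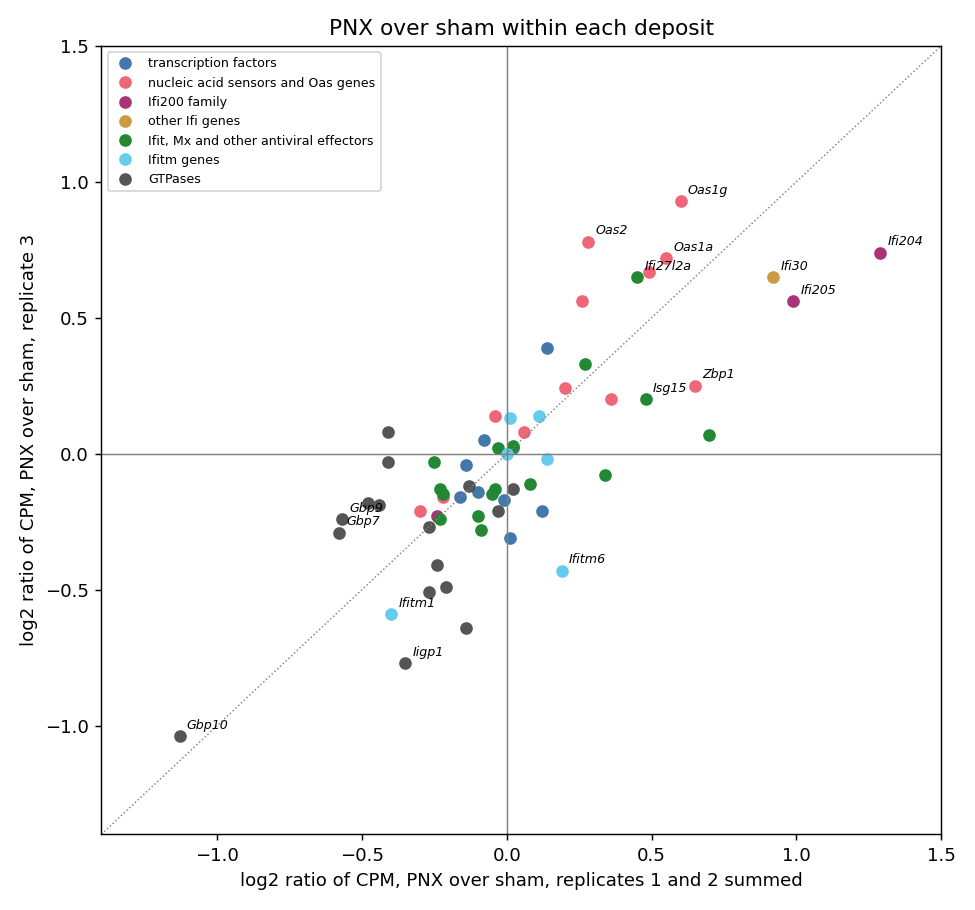
Log2 ratio of CPM, PNX over sham, in the earlier deposit (x axis, replicates 1 and 2 summed) against the later one (y axis, replicate 3) for 63 of the 65 tested genes, coloured by role, with the dotted line marking equal ratios. Over all 65 genes, 21 were higher in both deposits and 32 lower in both; Gbp10 lies at the lower left and Ifi204, Ifi205 and Ifi30 at the right.

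The deposits gave partly different sizes. The ratio of PNX to sham was above 1 in both deposits for 21 genes (32.3%) and below 1 in both for 32 of 65 (49.2%), against 36.0% and 39.3% of all genes tested. For Ifi204 the ratio came from 7.06 to 17.3 CPM in the earlier deposit and from 15.7 to 26.1 CPM in the later one.

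Upstream of these genes, interferon transcripts were scarce. Of 21 ligand genes listed, Ifng alone was tested, and 17 had 0 counts in every library. The other untested ligands had at most 3 counts in a library. Ifng, made by T cells and NK cells, had 56, 38 and 39 counts in the sham libraries and 86, 74 and 33 in the PNX libraries (0.50, SE 0.31, adjusted p = 0.300), and the groups overlapped.

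Of the 6 receptor genes 1 fell (16.7%, against 10.1% of all genes) and 0 rose. Ifnlr1, the type III receptor chain, had 4.49 and 3.36 CPM in the sham samples against 2.90 and 2.20 CPM after PNX (-0.62, SE 0.17, adjusted p = 0.0437). DESeq2 with the block gave it an adjusted p of 0.209. The type I chains did not pass, with log2 fold changes of 0.20 (SE 0.08) for Ifnar1 and 0.03 (SE 0.08) for Ifnar2. The type II chains did not pass either, at -0.20 (SE 0.08) for Ifngr1 and 0.13 (SE 0.08) for Ifngr2. The kinase and signalling list had 1 of 8 higher (Ikbke) and 1 lower (Ep300), 12.5% each. The inhibitors had 1 of 12 lower (Pias1), or 8.33%. These shares were near those of all genes (11.5% higher, 10.1% lower).

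Of 13 other sensors and adaptors 2 rose and 0 fell, and the 15.4% that rose was near the 11.5% of all genes. These 2 were the genes for cGAS and STING, the core of the cytosolic DNA pathway. Mb21d1 encodes cGAS, which makes a cyclic dinucleotide on binding DNA, and had 9.99 and 10.4 CPM in the sham samples against 18.1 and 17.5 CPM after PNX (0.81, SE 0.10, adjusted p = 0.00229). Tmem173 encodes STING, the receptor of that dinucleotide, and had 37.0 and 58.8 CPM in the sham samples against 70.8 and 92.1 CPM after PNX (0.80, SE 0.10, adjusted p = 0.00175). For both, the PNX libraries were all above the sham libraries, and the sham samples differed more for Tmem173.

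Of 49 other interferon-stimulated genes tested, 4 rose and 5 fell, 8.16% and 10.2%. Among all genes 11.5% rose and 10.1% fell, so these shares were near the background. The chemokine Cxcl10 rose most, from 2.69 and 8.66 CPM in sham to 10.1 and 17.5 CPM in PNX (1.48, SE 0.21, adjusted p = 0.00331). Lgals3bp, Apol9a and Ube2l6, the conjugating enzyme for Isg15, also rose. Those that fell were Tgtp2 (-0.67, SE 0.13) and Gvin1 (-0.61, SE 0.10), which are further interferon-induced GTPases, with Slfn5 (-0.59, SE 0.08), Cd274 (-0.33, SE 0.08), which encodes the checkpoint ligand PD-L1, and Nlrc5 (-0.32, SE 0.08), an activator of MHC class I genes. In DESeq2 with the block, 8 of the 15 genes of these pathway lists that passed in edgeR had an adjusted p under 0.05. Besides Ifnlr1, the other 6 did not: Cd274 (0.0878), Nlrc5 (0.115), Apol9a (0.0547), Ube2l6 (0.0679), Ikbke (0.0668) and Pias1 (0.0765). The macrophage markers that rose, and the summed level of their list, are given above. Their part in the levels of Cxcl10, Mb21d1 and Tmem173 was not tested.

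**Figure D4:**
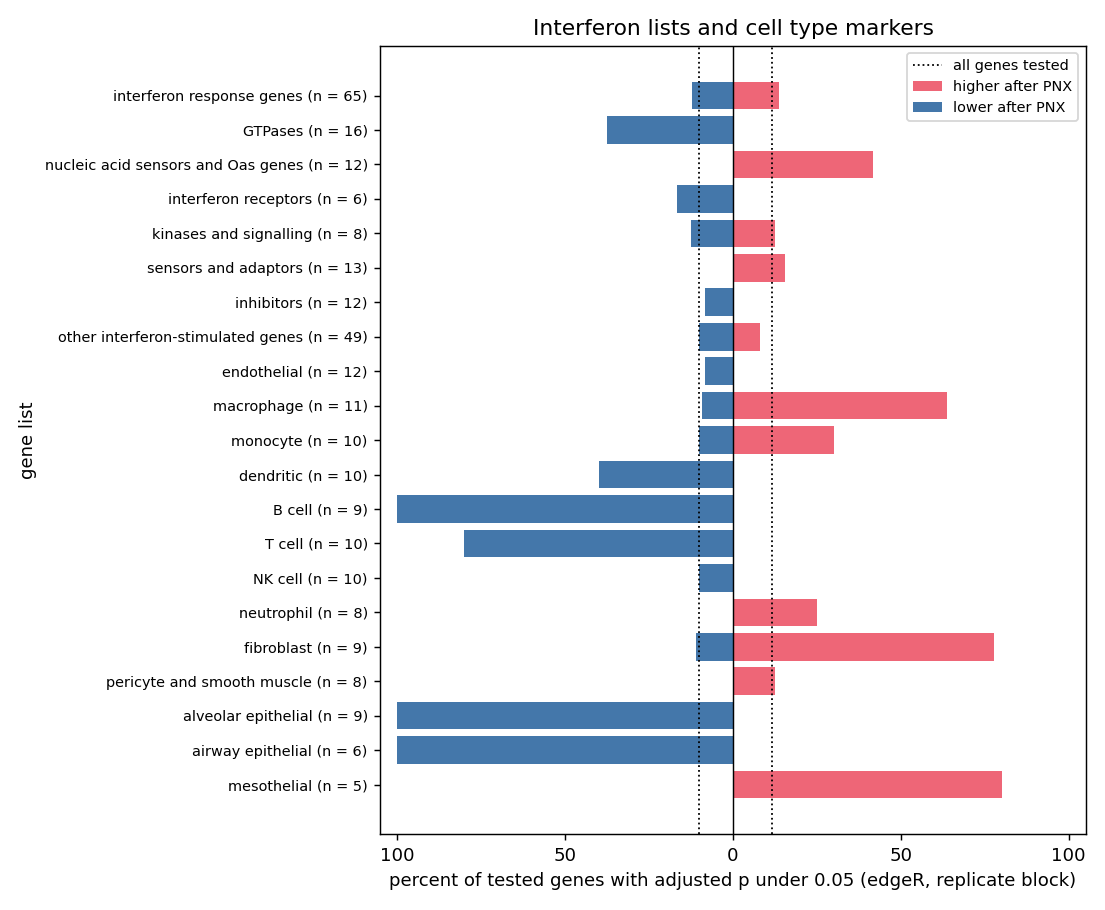
Percent of the tested genes of each list (rows, n in brackets) with an adjusted p under 0.05 in edgeR's test with the replicate block, higher to the right and lower to the left, with dotted lines at 11.5% and 10.1%, the shares among all genes. The interferon response genes as a whole sit near these lines, the GTPases extend left to 37.5%, the sensors and Oas genes right to 41.7%, and marker lists of other cell types extend further.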

How the data were processed

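Lung ECs of 6 libraries, each with RNA of 2 mice, were analysed as deposited. Per the labels and the study's methods, the authors sequenced stranded mRNA libraries in pairs and aligned them to mm10, and the submitters' processing notes name STAR, without a version. The authors deposited for each RefSeq transcript a raw read count, TPM and FPKM. How reads were assigned to transcripts, and with which strand setting, is not stated in the sources used here. The deposited TPM values (scaled by transcript length and library) served for levels only, and the deposited FPKM values were not used.

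Counts were summed per symbol and tested by the quasi-likelihood test of edgeR 4.0.16 (R 4.3.3) after filterByExpr and TMM scaling, with Benjamini-Hochberg adjustment over 16598 genes. Replicates 1 and 2 of a group were summed, as the chi-square over genes with at least 20 counts in the pair shows. The fit without a block was the main one. The labels tie replicates 1 and 2 of both groups to an earlier deposit, so a block for the deposit was fitted beside it. The biological coefficient of variation was 0.236 without the block and 0.0973 with it. DESeq2 1.42.0 and limma 3.58.1 were alternatives. SE is the fold change divided by the root of the F statistic. A check of the fits on simulated data used larger changes than most reported here. It does not show how well smaller changes are found.

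Named with values were all genes passing in either fit, the 3 most abundant of each role, and the largest changes with libraries that did not overlap. Igtp, Isg15, Dhx58 and genes of the marker and pathway lists were added after their values were seen. The genes, roles and lists were chosen with earlier results of these data known. Positions and overlaps are from GENCODE vM21 (GRCm38). Depth limits the scarce genes most. Values of 2 of the 65 tested genes are not reported here; they stay in the counts of genes.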

Additional observations from a re-analysis of the deposited data

How the results depend on the processing

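The number of interferon response genes passing depended on how the deposits were handled. At the study's thresholds it was 0 in edgeR without the block, 1 with the replicate block and 1 with the block in DESeq2, both higher. On 6 libraries as separate replicates it was 2 with the block (1 higher, 1 lower) and 1 in DESeq2 without it (lower). With the block and 1 library left out it ranged from 0 to 1, and with the block and DESeq2 size factors, library size alone, or transcripts of identical counts counted once it was 0. At an adjusted p under 0.05 it was 17 with the replicate block (26.2% of those tested, against 21.6% of all genes), 6 on 6 libraries (2 higher, 4 lower, 9.23% against 13.2%), and 40 with the block on these (16 higher, 24 lower, 61.5% against 51.6%). It was 13 (7 higher, 6 lower, 20%) with the block under DESeq2 size factors (19.3% of all genes), library size alone (19.6%), DESeq2 (15.4%) or identical transcripts counted once (20%), and 13 in DESeq2 on 6 libraries (9 higher, 4 lower, 19.4% against 19.8%). With the block it was 14 without sham replicate 1 or 2, 13 without PNX replicate 1 and 16 without PNX replicate 2 (20 to 24.6%, against 17.6 to 22% of all genes). With 6 libraries the near-identical replicates 1 and 2 count as separate. All genes called numbered 849 with the block (645 higher, 204 lower), 624 with the block under DESeq2 size factors (540 and 84), 629 under library size alone (550 and 79), 816 in DESeq2 with the block, 643 with identical transcripts counted once, 409 on 6 libraries, 1104 with the block on these, 587 in DESeq2 without the block, 927 in DESeq2 on 6 libraries, 0 to 2 without the block and 1 library left out (2 without PNX replicate 3), and, with the block, 671 and 668 without sham replicate 1 or 2 and 485 and 863 without PNX replicate 1 or 2. Scaling, filters on low counts, the most abundant transcript alone and limma-voom gave 0 interferon response genes without the block. Of the 17 genes passing with the block, 11 passed in all 10 fits with a block, and all 17 kept their sign in every alternative. All 16 GTPases had values below 0 under each scaling tried, with and without the block, and 5 or 6 of them passed with it. For 7 genes that did not pass, a left-out library turned the sign: without sham replicate 3 against without PNX replicate 3, log2 fold changes were -0.15 and 0.21 for Bst2, -0.05 and 0.08 for Ddx58, -0.02 and 0.10 for Ifitm2, -0.12 and 0.11 for Gbp3, -0.17 and 0.03 for Ifi27, 0.07 and -0.02 for Irf1, and -0.14 and 0.05 for Irf9. Leaving out replicate 3 of a group leaves 1 sample there, assumed to vary like the other group, and a block could then not be fitted. The fits with the block and 1 library left out or identical transcripts counted once, and DESeq2 on 6 libraries, were chosen after seeing the data. The causes were not tested. Of the genes tested, Ifi27l2b and Gbp2b, both under 1 CPM, had the widest SE with the block (0.44 and 0.39).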
